A study of Mus musculus with 6 samples.

Results

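The collagen cross-linking and hydroxylating enzymes are 10 genes of mouse colon, chosen by their symbols, out of 24421 gene rows measured by RNA sequencing. They comprise the lysyl oxidases Lox, Loxl1, Loxl2 and Loxl3, the lysyl hydroxylases Plod1, Plod2 and Plod3, and the catalytic alpha subunits of prolyl 4-hydroxylase P4ha1, P4ha2 and P4ha3. All 10 symbols were found once in every sample. The samples were 3 of colon from mice with chronic colitis induced by dextran sulfate sodium (DSS), which is given to rodents to injure the colonic epithelium, and 3 of control colon. All 6 samples carried the strain name C57BL/6 and an age label of 7 weeks, and no transgene or further agent is named for either group. Whether the 3 samples of a group are 3 animals is not stated in the labels, and p-values therefore reflect only how far these samples differ, which may be technical. The study's question concerned histone H3 acetylation (H3K27ac) in gut inflammation, and its RNA comparison was analysed here.

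Collagen chains are modified before and after they leave the cell. In the endoplasmic reticulum, prolyl 4-hydroxylase adds hydroxyl groups to proline, which keep the triple helix stable at body temperature, and lysyl hydroxylases add them to lysine, which sets the kind of cross-link that can form. Outside the cell, the copper enzymes of the lysyl oxidase family oxidise lysine and hydroxylysine side chains of collagen and elastin, whose products then join neighbouring chains covalently. In the intestine these genes are known mainly from fibroblasts and smooth muscle cells, and fibrosis of the bowel wall is a known complication of chronic inflammation.

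Levels are in FPKM, a read abundance divided by transcript length and by library size, so that levels of different genes can be set side by side. A mean is given with its SD (n = 3 samples a group), and a log2 fold change with its SE. Genes reaching 1 FPKM in 3 or more samples, 12348 in number, entered a limma test on log2(FPKM + 1), a scale that understates the change of low genes, and a gene was called at a Benjamini-Hochberg adjusted p under 0.05. The tested genes held 9 of the 10 enzymes, and P4ha3 was below that level. The FPKM sums lay between 629036 and 678076 in DSS colon and between 609544 and 638096 in control colon, while read totals are unknown. The sampled tissue carried the epithelial keratin gene Krt8 at 2625 ± 191 FPKM in DSS colon and 4629 ± 836 FPKM in control colon. Over all tested genes the median log2 fold change was 0.13, and scaling by median of ratios lowered it by 0.14. The calls comprised 783 higher and 316 lower genes without scaling, and 517 higher and 503 lower genes with it.

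Lox was the member that rose, and the other 8 tested members did not pass the test in either direction. With 6.34% of all tested genes called higher and 2.56% called lower, 1 of 9 members higher and 0 of 9 lower is close to that background (limma, Benjamini-Hochberg adjusted, with 2 members at an unadjusted p under 0.05, Lox higher and P4ha1 lower). In either direction 8.9% of tested genes were called. With another scaling or without 1 DSS sample, genes called higher were 4.19% with median of ratios, 4.41% with upper quartile, 9.43% without DSS 1, 5.58% without DSS 2 and 2.54% without DSS 3, and Lox was among them each time. The gene Lox itself stood 67th among the 12348 tested genes ordered by log2 fold change. The median log2 fold change of the 9 tested members was 0.21, beside 0.13 for all tested genes. All 10 members had a larger SD in DSS colon than in control colon, as did 65.9% of all tested genes.

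**Figure D1:**
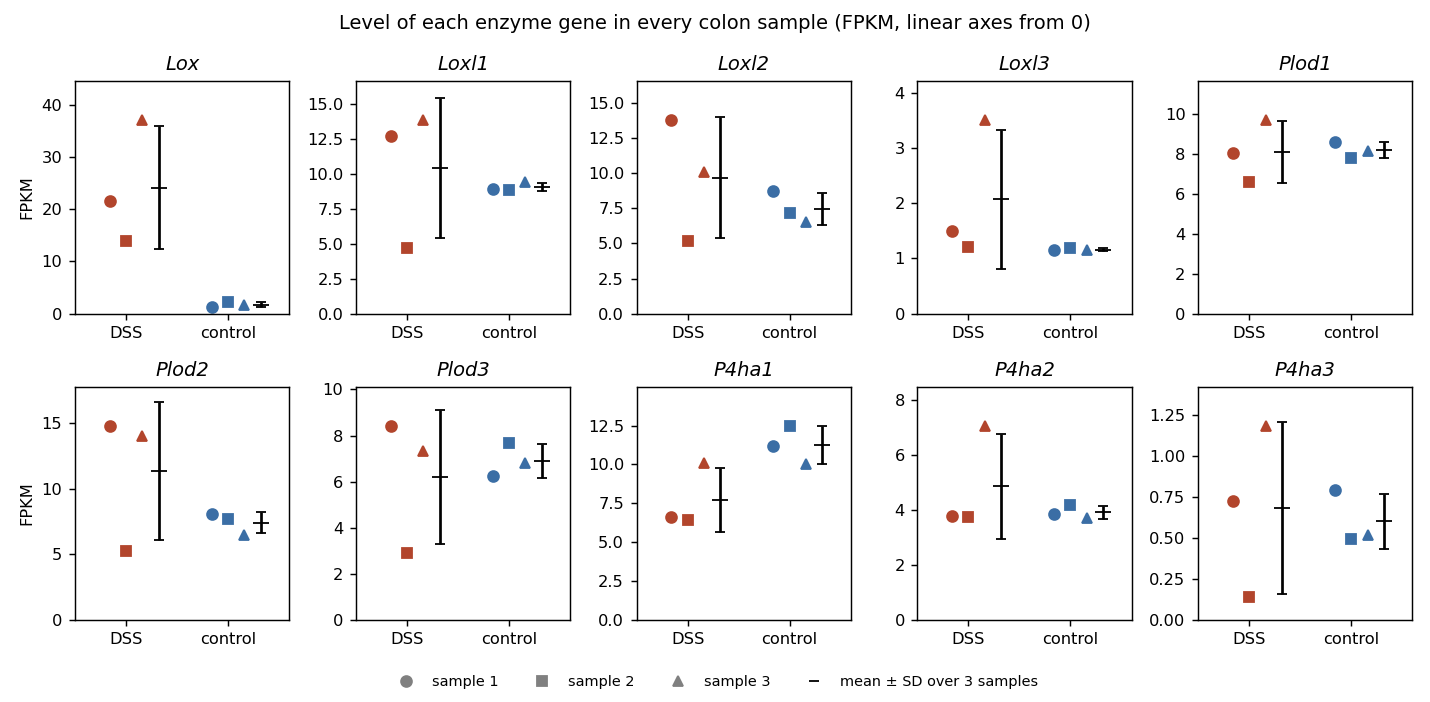
FPKM of each of the 10 enzyme genes in the 3 DSS samples (left of each panel) and the 3 control samples (right), with the mean and SD beside them. The DSS values of Lox lie between 13.8 and 37.1 FPKM, all above the control values, and the square of DSS 2 is the lowest DSS point in each panel.

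Lox encodes lysyl oxidase, the founding enzyme of the family, which acts on fibrillar collagen and elastin. It had 21.5, 13.8 and 37.1 FPKM in DSS 1, 2 and 3, against 1.35, 2.24 and 1.61 FPKM in control 1, 2 and 3. The groups did not overlap, and the lowest DSS sample was 6.17 times the highest control sample. Such separation was common in these data, since 35.1% of all tested genes had groups that did not overlap, 25.6% with DSS colon higher. Lox averaged 24.1 ± 11.8 FPKM in DSS colon and 1.74 ± 0.459 FPKM in control colon, a 13.9-fold difference of the means (log2 fold change 3.11 ± 0.34 SE, 95% interval 2.32 to 3.89, adjusted p = 0.00262). The DSS samples differed among themselves by 2.68 times from the lowest to the highest. Lox lies on the minus strand of chromosome 18, 52516067 to 52529867 in GRCm38, and shares 30 exonic bases with an annotated antisense gene, from whose reads its own cannot be told apart without strand.

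Loxl1 (chromosome 9, 58287738 to 58313186, GRCm38, minus strand), a relative known in mice for elastic fibre upkeep, did not differ beyond the spread of the DSS samples. It had 12.8, 4.71 and 13.9 FPKM in DSS 1, 2 and 3, against 8.96, 8.90 and 9.42 FPKM in the control samples. The values of DSS 1 and DSS 3 lay above all controls and that of DSS 2 below them (log2 fold change 0.062 ± 0.35 SE, 95% interval -0.77 to 0.89, adjusted p = 0.928). Loxl2, whose protein carries scavenger receptor domains beside the oxidase domain and is known to act on the collagen IV of basement membranes, had 13.8, 5.15 and 10.1 FPKM in the DSS samples, against 8.70, 7.13 and 6.54 FPKM in the control samples. DSS 2 again lay below all controls, and DSS 1 and DSS 3 above them (log2 fold change 0.26 ± 0.31 SE, 95% interval -0.48 to 0.99, adjusted p = 0.636). Loxl2 has near-identical copies of transcript sequence at 4 other genes and shares 301 exonic bases with an antisense gene, so its values are uncertain.

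Loxl3, another relative with scavenger receptor domains, was the second member whose groups did not overlap without scaling, and its difference rested mainly on 1 sample. Its level was 1.49, 1.21 and 3.51 FPKM in the DSS samples, against 1.15, 1.18 and 1.15 FPKM in the control samples. DSS 2 exceeded the highest control by 1.02 times, and DSS 3 stood well above the rest (log2 fold change 0.43 ± 0.28 SE, 95% interval -0.21 to 1.08, adjusted p = 0.343). With median-of-ratios scaling the groups of Loxl3 overlapped, with DSS 2 at 1.25 FPKM and control 1 at 1.29 FPKM. Loxl3 shares 535 exonic bases with Htra2, a mitochondrial protease gene on the opposite strand, so reads of the pair can be mixed. Loxl4, the family's remaining gene and not one of the 10, was below the level tested, at 0.742, 0.684 and 0.580 FPKM in DSS colon and 0.557, 0.356 and 0.281 FPKM in control colon.

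**Figure D2:**
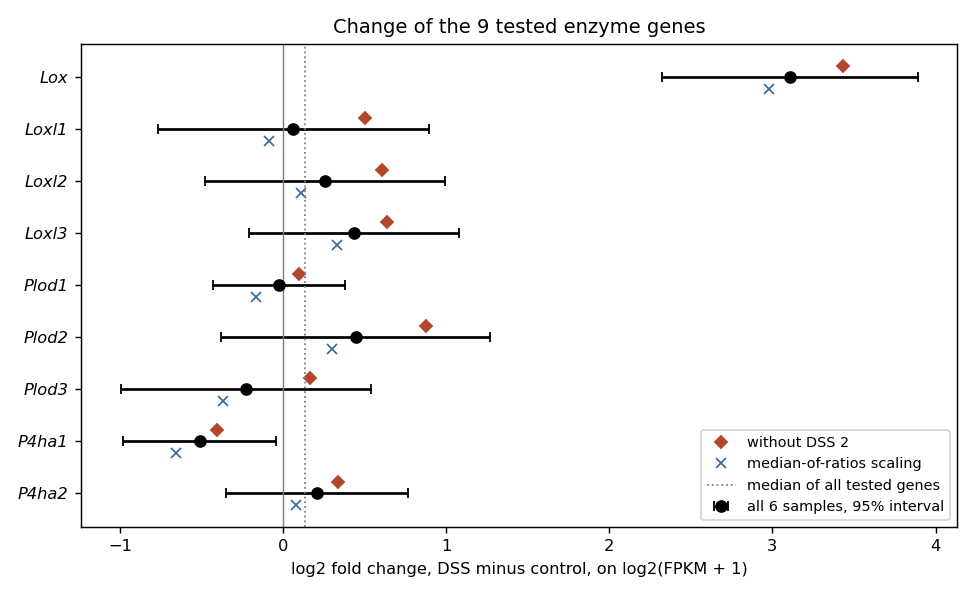
Estimated log2 fold changes of the 9 tested enzyme genes, DSS minus control, with 95% intervals (black), the value without DSS 2 (diamonds) and the value after median-of-ratios scaling (crosses). The interval of Lox runs from 2.32 to 3.89, those of Loxl1, Loxl2, Loxl3, Plod1, Plod2, Plod3 and P4ha2 include 0, and that of P4ha1 ends at -0.042.

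Among the lysyl hydroxylases none was called in the fit of all 6 samples, and Plod2 was called when DSS 2 was left out. Plod2 (chromosome 9, 92542223 to 92608428, GRCm38, plus strand) encodes the enzyme that hydroxylates lysines of the collagen telopeptides, the short ends from which cross-links start. Its level was 14.8, 5.27 and 14.0 FPKM in DSS 1, 2 and 3, against 8.06, 7.66 and 6.48 FPKM in the control samples. DSS 1 and DSS 3 stood above all controls and DSS 2 below all (log2 fold change 0.44 ± 0.35 SE, 95% interval -0.38 to 1.27, adjusted p = 0.445). Without DSS 2 the log2 fold change of Plod2 was 0.88 ± 0.16 SE (limma adjusted p = 0.0289), in a fit that called 5.58% of all tested genes higher. Plod2 was called in only this 1 of 14 alternatives, which left out its lowest sample. Plod2 shares 346 exonic bases with an annotated transcript of unknown kind on the other strand.

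Plod1, which hydroxylates lysines within the triple helix and whose loss in humans causes a form of Ehlers-Danlos syndrome, kept the most even level of the 3. It had 8.06, 6.61 and 9.73 FPKM in DSS colon and 8.63, 7.82 and 8.18 FPKM in control colon. The groups overlapped, and the 95% interval of its log2 fold change ran from -0.43 to 0.38 (estimate -0.025 ± 0.17 SE, adjusted p = 0.939). Plod3, an enzyme that also attaches sugars to hydroxylysine, had 8.42, 2.89 and 7.31 FPKM in DSS colon and 6.23, 7.68 and 6.81 FPKM in control colon. DSS 2 lay below all other samples, while DSS 1 and DSS 3 lay within or above the control range (log2 fold change -0.23 ± 0.33 SE, upper 95% bound 0.54, adjusted p = 0.691). Plod3 shares 529 exonic bases with Znhit1 on the opposite strand.

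The prolyl 4-hydroxylase subunits did not pass the test. P4ha1, the main catalytic subunit in most tissues, had 6.62, 6.43 and 10.1 FPKM in DSS 1, 2 and 3, against 11.2, 12.5 and 10.1 FPKM in the control samples. DSS 1 and DSS 2 lay below all controls, and DSS 3 overlapped them at the level of control 3 (log2 fold change -0.51 ± 0.20 SE, 95% interval -0.98 to -0.042, adjusted p = 0.148). With median-of-ratios scaling the groups of P4ha1 did not overlap, with DSS 3 at 8.95 FPKM and control 3, the lowest control, at 10.4 FPKM. P4ha2, the catalytic subunit best known from cartilage and endothelium, had 3.76, 3.74 and 7.04 FPKM in DSS colon and 3.83, 4.18 and 3.71 FPKM in control colon. DSS 3 stood apart at the high end, and DSS 1 and DSS 2 lay within the control range (log2 fold change 0.21 ± 0.24 SE, 95% interval -0.35 to 0.76, adjusted p = 0.610). P4ha2 has 1 near-identical copy among annotated transcripts, which makes its values uncertain. P4ha3, a low-level subunit, had 0.724, 0.137 and 1.18 FPKM in DSS colon and 0.795, 0.492 and 0.519 FPKM in control colon, with overlapping groups and no test.

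P4ha1 and P4ha2 are among the known targets of hypoxia-inducible factors, which bind a short core motif. Their promoters are shown here because the ratio of their levels did not overlap between the groups. The ratios of Lox to Loxl1, to Loxl2 and to Plod2 did not overlap either, but no promoter windows were found for these genes. Lox to Loxl1 was 1.68, 2.94 and 2.67 in DSS 1, 2 and 3, against 0.150, 0.252 and 0.171 in control 1, 2 and 3. Whether these factors had a part in any of the levels was not tested. The promoter windows are from RefSeq on GRCm38.p6, from 250 bases before the start to 50 after it, and such windows were found for 5 of the 10 members (Plod1, Plod3, P4ha1, P4ha2 and P4ha3). Capitals mark each ACGTG or GCGTG, searched on both strands, so that CACGT and CACGC mark the reverse strand. P4ha1 lies at chr10:59323046-59323345 and P4ha2 at chr11:54100674-54100973, both on the plus strand.
P4ha1: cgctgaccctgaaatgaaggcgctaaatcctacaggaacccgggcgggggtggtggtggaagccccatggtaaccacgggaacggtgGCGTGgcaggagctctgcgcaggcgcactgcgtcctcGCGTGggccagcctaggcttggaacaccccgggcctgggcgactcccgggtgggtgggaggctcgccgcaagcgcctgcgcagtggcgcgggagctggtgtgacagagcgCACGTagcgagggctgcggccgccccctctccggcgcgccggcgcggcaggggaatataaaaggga
P4ha2: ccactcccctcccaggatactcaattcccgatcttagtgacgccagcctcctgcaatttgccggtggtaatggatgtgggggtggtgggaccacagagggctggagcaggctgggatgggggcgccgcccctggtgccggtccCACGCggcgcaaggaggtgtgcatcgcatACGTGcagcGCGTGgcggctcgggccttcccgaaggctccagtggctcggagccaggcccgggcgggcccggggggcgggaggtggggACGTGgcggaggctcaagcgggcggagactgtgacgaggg
The P4ha1 window held 3 matches and the P4ha2 window 4, and no 2 of them overlapped. Of the other promoters, Plod1 held 2 matches, Plod3 held 4 and P4ha3 held 0. At least 1 match stood in 43.8% of all 32851 windows of the same length, so matches in 4 of 5 members are a description of letters and not of binding.

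Each gene's share of its family's summed FPKM in the same sample does not depend on scaling between samples, and is given as a value with no test. The groups did not overlap for the shares of all 4 lysyl oxidases, of Plod2 and Plod3, and of P4ha1 and P4ha2, and they overlapped for Plod1 and P4ha3. Shares within a family depend on each other, so these are not separate results. No background was computed for such shares, and by level 35.1% of all tested genes had groups that did not overlap. Lox held 43.4%, 55.6% and 57.4% of lysyl oxidase FPKM in DSS 1, 2 and 3, against 6.69%, 11.5% and 8.62% in control 1, 2 and 3. It was the most abundant member of its family in each DSS sample, while Loxl1 was the most abundant in each control sample, at 44.5%, 45.7% and 50.3%. The family's summed level was 49.5, 24.9 and 64.6 FPKM in the DSS samples and 20.2, 19.5 and 18.7 FPKM in the control samples, and the shares of Loxl1, Loxl2 and Loxl3 were lower in each DSS sample, which the higher Lox share entails in sum. The family sums were not tested.

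Plod2 held 47.3%, 35.7% and 45.1% of lysyl hydroxylase FPKM in the DSS samples and 35.2%, 33.1% and 30.2% in the control samples. The groups did not overlap, although DSS 2 exceeded control 1 only narrowly. Plod3 held 26.9%, 19.6% and 23.6% in DSS colon and 27.2%, 33.2% and 31.7% in control colon, also without overlap, and the share of Plod1 overlapped. Among the prolyl 4-hydroxylase subunits P4ha1 held 59.6%, 62.4% and 55.1% in DSS colon and 70.8%, 72.8% and 70.4% in control colon. P4ha2 held 33.8%, 36.3% and 38.4% in DSS colon and 24.2%, 24.4% and 26.0% in control colon. Both shares stood apart between the groups in all 6 samples, and since P4ha3 was low, a lower share of P4ha1 nearly entails a higher share of P4ha2. The ratio of P4ha2 to P4ha1 was 0.567, 0.582 and 0.698 in the DSS samples and 0.342, 0.335 and 0.369 in the control samples.

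**Figure D3:**
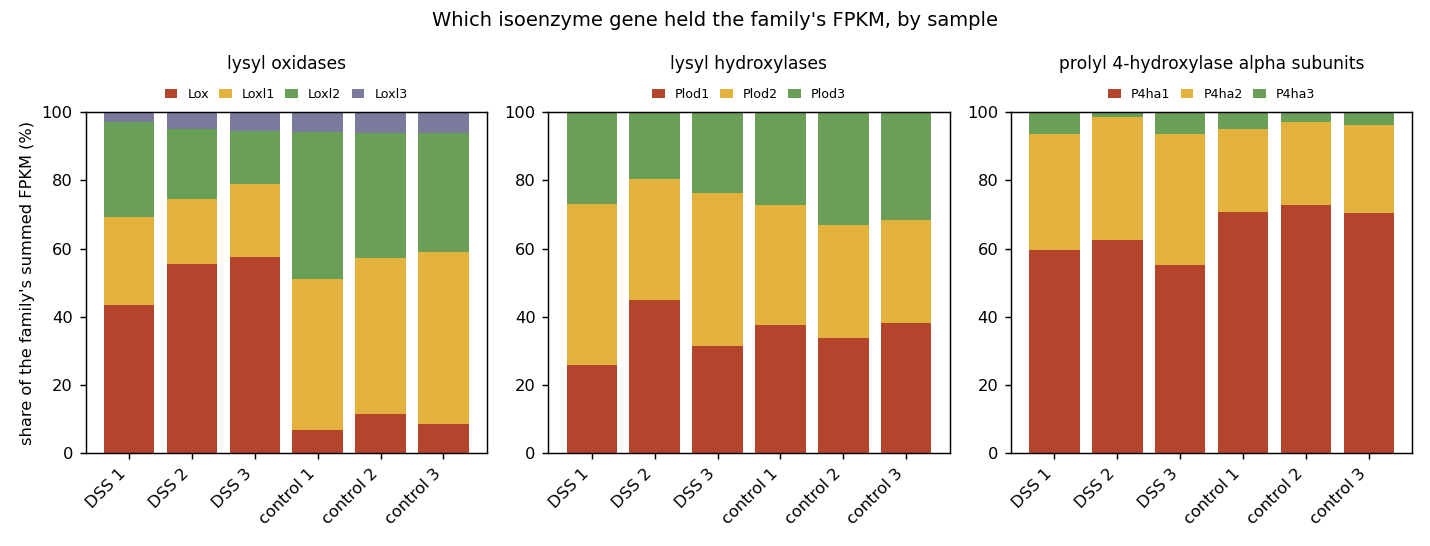
Share of each family's summed FPKM held by each gene, as stacked bars for the 3 DSS samples and the 3 control samples (percent). The Lox segment covers 43.4% to 57.4% in DSS colon and 6.69% to 11.5% in control colon, and the P4ha1 segment 55.1% to 62.4% in DSS colon and 70.4% to 72.8% in control colon.

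The order of the levels was as follows. In DSS colon Lox came first at a mean of 24.1 FPKM, followed by Plod2, Loxl1, Loxl2, Plod1, P4ha1, Plod3 and P4ha2 with ranges that overlapped from each to the next, then Loxl3 and P4ha3, each below the range of the gene before it. In control colon P4ha1 came first at 11.2 ± 1.21 FPKM, followed by Loxl1 at 9.10 ± 0.286 FPKM, and both stood clear of the next gene. Plod1, Loxl2, Plod2 and Plod3 followed with overlapping ranges, then P4ha2, Lox, Loxl3 and P4ha3, which did not overlap each other. Lox stood in 8th place of 10 in control colon and in 1st place in DSS colon.

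DSS 2 had the lowest value of the 3 DSS samples for all 10 members, 9 of them tested, and for 49.9% of all tested genes. It was the lowest of all 6 samples for 7 members, and after median-of-ratios scaling it was the lowest DSS sample for 8, with DSS 1 lowest for P4ha1 and P4ha2. For these further counts the share over all tested genes was not computed, so they cannot be read as particular to the members. The 9 tested members had a median log2 difference from the control mean of 0.26 in DSS 1, of -0.42 in DSS 2 and of 0.56 in DSS 3, beside 0.16, 0.043 and 0.20 over all tested genes. Fibroblast markers were lowest in DSS 2 within the DSS group for 13 of 14 genes, at summed levels of 958, 643 and 862 FPKM in DSS 1, 2 and 3 and of 675 to 835 FPKM in control colon. Endothelial markers were lowest in DSS 2 for 8 of 9 genes, with summed levels of 53.1, 26.9 and 43.1 FPKM in the DSS samples and 36.0 to 37.6 FPKM in control colon. Smooth muscle markers were lowest in DSS 2 for 9 of 12 genes, with summed levels of 2160, 1503 and 4139 FPKM in the DSS samples. The same held for 7 of 10 macrophage and 5 of 8 epithelial markers, but for only 1 of 8 neutrophil and 1 of 8 adipocyte markers. The part of these cell types in the low values of DSS 2 was not tested, and in a piece of tissue fewer cells of a type and less RNA per cell cannot be told apart.

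**Figure D4:**
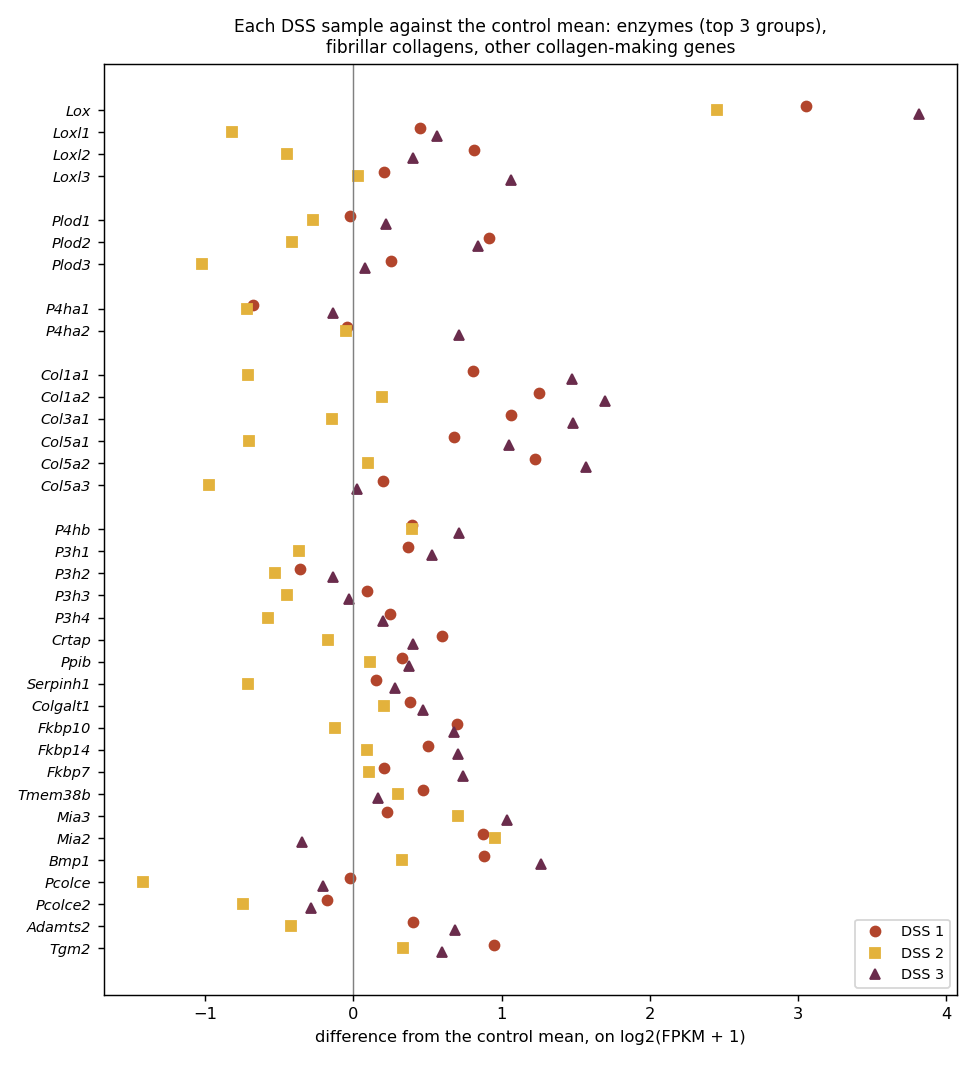
Difference of each DSS sample from the control mean, on log2(FPKM + 1), for the 9 tested enzyme genes (top 3 groups), the 6 tested fibrillar collagens and the 20 tested other collagen-making genes. The squares of DSS 2 lie left of DSS 1 and DSS 3 for all 9 enzymes and all 6 collagens.

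Fibrillar collagens are the main substrates of these enzymes. DSS 2 was the lowest DSS sample for all 6 tested fibrillar collagen genes, and so for 6 of 11 in the whole list, whose other 5 genes were below the tested level. With all 6 samples no call was made among 6 tested fibrillar collagen genes (2 had an unadjusted limma p under 0.05), whose median log2 fold change was 0.66. Col3a1, the type III chain, had 268, 115 and 359 FPKM in DSS 1, 2 and 3, against 139, 135 and 111 FPKM in the controls (log2 fold change 0.80 ± 0.39 SE, adjusted p = 0.231). Col1a2, a type I chain, had 85.8, 40.7 and 117 FPKM in DSS colon and 36.5, 36.6 and 33.5 FPKM in the controls (log2 fold change 1.04 ± 0.35 SE, adjusted p = 0.111). Its groups did not overlap, while DSS 2 lay within the control range for Col3a1. Col5a2, a type V chain, had 27.5, 12.1 and 35.1 FPKM in the DSS samples against a control mean of 11.3 FPKM, with overlapping groups (log2 fold change 0.96 ± 0.36 SE, limma adjusted p = 0.136), and Col1a1 averaged 18.8 ± 12.5 FPKM in DSS colon and 10.6 ± 1.23 FPKM in control colon. Without DSS 2, Col1a1, Col1a2, Col3a1 and Col5a2 were called higher, with log2 fold changes of 1.14, 1.47, 1.27 and 1.39 (limma adjusted p = 0.0366, 0.00737, 0.0139 and 0.0111), in the fit that called 5.58% of tested genes higher.

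Set against these substrates, Lox was higher per unit of collagen RNA. Lox FPKM came to 5.76%, 8.53% and 7.32% of the summed FPKM of Col1a1, Col1a2 and Col3a1 in DSS 1, 2 and 3, against 0.718%, 1.24% and 1.04% in control 1, 2 and 3. The groups did not overlap, as for 2.27% of all tested genes with a higher ratio in DSS colon, and DSS 2, the sample with the lowest Lox level of the 3, had the highest ratio. The mean log2 ratio was 2.87 higher in DSS colon, a 7.29-fold difference (exact permutation test, two-sided, n = 3 each, p = 0.1, the smallest p this design allows). With all fibrillar collagens as the denominator the difference was 2.87 and with fibroblast markers 3.64, each at the same p of the exact permutation test.

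P4ha1 came to 1.78%, 3.97% and 1.99% of the same collagen sum in DSS colon and to 5.97%, 6.91% and 6.47% in control colon, a 0.375-fold ratio. Plod3 came to 2.26%, 1.78% and 1.44% in DSS colon and to 3.32%, 4.25% and 4.38% in control colon, a 0.455-fold ratio. Of the 8 tested members other than Lox, 6 had lower ratios in DSS colon with groups apart, as did the untested P4ha3, and Loxl3 and P4ha2 overlapped. Of all tested genes, 24.4% had a lower ratio with groups apart. Relative to fibroblast markers, in place of collagen, the groups of P4ha1 stayed apart and those of Loxl1, Loxl2, Loxl3, Plod1, Plod2, Plod3, P4ha2 and P4ha3 overlapped. The collagen sum itself was 373, 162 and 507 FPKM in the DSS samples and 188, 181 and 155 FPKM in the control samples, so any gene at an even level has a lower ratio in DSS 1 and DSS 3.

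**Figure D5:**
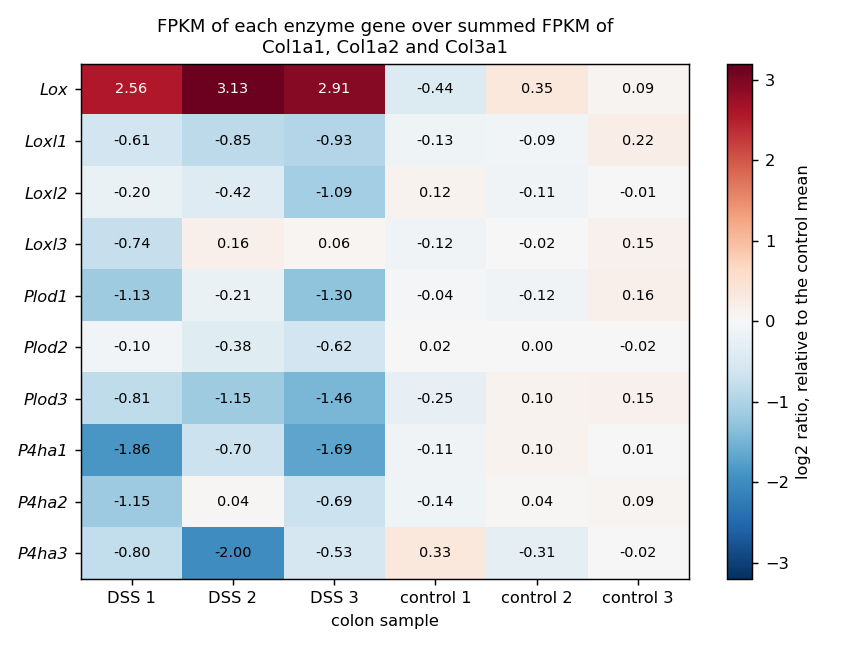
FPKM of each enzyme gene divided by the summed FPKM of Col1a1, Col1a2 and Col3a1, on the log2 scale relative to the mean of the control samples, for 3 DSS samples (left) and 3 control samples (right). The Lox row is the one with values above 2 in the DSS samples, and the rows of Loxl1, Loxl2, Plod1, Plod2, Plod3, P4ha1 and P4ha3 are below 0 in each of them.

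Of 26 genes of collagen folding, hydroxylation, trimming and cross-linking outside the 10 members, 20 were tested and none was called (4 at an unadjusted limma p under 0.05), with a median log2 fold change of 0.29, beside 0.13 for all tested genes. In 6 of the 20 tested genes the groups did not overlap with DSS colon higher, and in 1 with DSS colon lower. Of all tested genes, 25.6% had groups apart with DSS colon higher. P4hb, the beta subunit that all prolyl 4-hydroxylase alpha subunits need, had 274, 274 and 343 FPKM in DSS colon and 206, 201 and 219 FPKM in the controls (log2 fold change 0.50 ± 0.14 SE, adjusted p = 0.0735). Its groups did not overlap, unlike those of P4ha1 and P4ha2 without scaling. Ppib, a collagen-folding cyclophilin, averaged 502 ± 47.0 FPKM in DSS colon and 414 ± 8.89 FPKM in the controls (limma adjusted p = 0.223), and Serpinh1, the collagen chaperone HSP47, averaged 60.8 ± 20.4 FPKM in DSS colon and 64.3 ± 19.4 FPKM in the controls (limma adjusted p = 0.886). Tgm2, a transglutaminase that cross-links matrix proteins by another chemistry, had 55.1, 35.6 and 42.8 FPKM in DSS colon and 30.3, 26.1 and 27.8 FPKM in the controls (log2 fold change 0.63 ± 0.18 SE, adjusted p = 0.0774). Without DSS 2 Tgm2 and Bmp1, a procollagen protease that also activates the lysyl oxidase precursor, were called higher (limma adjusted p = 0.0453 and 0.0219), and without DSS 1 the collagen export gene Mia3 was.

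Of 14 tested elastic fibre genes, which include further substrates and partners of lysyl oxidases, 1 rose and 1 fell. Among all tested genes 6.34% were called higher and 2.56% lower. Mfap2, a microfibril protein gene, had 4.05, 5.74 and 6.69 FPKM in DSS colon and 1.75, 2.30 and 2.06 FPKM in the controls (log2 fold change 1.08 ± 0.21 SE, adjusted p = 0.0221). Ltbp4, which helps to assemble elastic fibres, had 8.19, 4.01 and 6.96 FPKM in DSS colon and 18.6, 17.9 and 20.1 FPKM in the controls (log2 fold change -1.47 ± 0.24 SE, adjusted p = 0.0126). Eln, the elastin gene, had 11.2, 3.92 and 26.0 FPKM in DSS colon and 10.4, 10.2 and 10.3 FPKM in the controls (limma adjusted p = 0.962). The median log2 fold change of the list was 0.13, the same as for all tested genes at 2 digits. Mfap2 was not called without DSS 3 or without any 1 control, and Ltbp4 not without control 2 or control 3 (limma adjusted p up to 0.0880 and 0.0614). Without DSS 2 the list had 3 higher genes, with Efemp2 and Ltbp3 added, and without DSS 1 it had 2 lower genes, with Fbln1 added (limma adjusted p = 0.0348, 0.0403 and 0.0249). Of all 12348 tested genes, 689 were called higher without DSS 2 and 606 lower without DSS 1.

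Of 15 genes known as targets of hypoxia-inducible factors, 2 rose, where 6.34% of all tested genes were called higher. The median log2 fold change was 0.16, beside 0.13 for all tested genes. Bnip3, a mitophagy receptor gene, averaged 59.6 ± 9.68 FPKM in DSS colon and 33.8 ± 4.19 FPKM in the controls (limma adjusted p = 0.0313), and Ero1l, an oxidase of the endoplasmic reticulum, averaged 23.7 ± 5.54 FPKM in DSS colon and 13.4 ± 0.416 FPKM in the controls (limma adjusted p = 0.0462). Neither was called with median-of-ratios scaling, with no filter, with the replicate block, without DSS 3 or without any 1 control, and Ero1l was also lost under other settings (limma adjusted p up to 0.124 for Bnip3 and 0.151 for Ero1l over all alternatives). Ndrg1 was called higher with the replicate block and without DSS 1 (limma adjusted p = 0.0414 and 0.00108), and Car9 without DSS 2 (limma adjusted p = 0.0239), which made 3 higher genes without DSS 1 and 3 without DSS 2. The fits without DSS 1 and without DSS 2 called 9.43% and 5.58% of all tested genes higher.

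Markers of several cell types differed between the groups beside the Lox values, and their part in these was not tested. Of 14 fibroblast markers Pdpn rose and Cd34 fell (median log2 fold change 0.19). Pdpn was not called with either scaling or with either other filter, Cd34 was not called with no filter, and Fap was called higher without DSS 1. Among the most abundant markers, Dcn was at 428 ± 77.9 FPKM in DSS colon and 346 ± 41.8 FPKM in control colon and Postn was at 103 ± 28.8 FPKM in DSS colon and 137 ± 20.1 FPKM in control colon. Lox relative to the summed fibroblast markers was 12.4-fold higher in DSS colon. Of 12 smooth muscle markers Tpm2 fell, and 7 had an unadjusted limma p under 0.05 (median log2 fold change -0.99, summed levels of 1503 to 4139 FPKM in DSS colon and 4405 to 5500 FPKM in control colon), with Tagln at 810 ± 374 FPKM in DSS colon and 1693 ± 269 FPKM in control colon and Actg2 at 409 ± 287 FPKM in DSS colon and 711 ± 95.9 FPKM in control colon. Without DSS 3 the count of smooth muscle markers called lower was 10 of 12, and with either scaling it was 3 (Acta2, Tagln and Tpm2), while with no filter or the replicate block it was 0. None of 9 endothelial markers was called (1 at an unadjusted limma p under 0.05), with Pecam1 at 11.5 ± 4.65 FPKM in DSS colon and 12.7 ± 0.620 FPKM in control colon and Emcn at 7.87 ± 0.477 FPKM in DSS colon and 6.65 ± 1.04 FPKM in control colon. Without DSS 2 the endothelial markers Cdh5 and Vwf were called higher (limma adjusted p = 0.0360 and 0.0376).

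Of 8 epithelial markers Krt8 and Krt19 fell, at summed levels of 4973 to 6458 FPKM in DSS colon and 8816 to 12638 FPKM in control colon. With median-of-ratios scaling 4 epithelial markers were called lower, and without DSS 1 the calls were 3 lower and 1 higher. Of all 12348 tested genes, 503 were called lower with that scaling, and 606 lower and 1165 higher without DSS 1. None of 9 tested macrophage markers was called (2 at an unadjusted limma p under 0.05), with Lyz2 at 453 ± 83.0 FPKM in DSS colon and 319 ± 34.3 FPKM in control colon and C1qa at 92.5 ± 13.4 FPKM in DSS colon and 71.7 ± 3.86 FPKM in control colon. Without DSS 1 the macrophage marker Csf1r was called lower. All 8 tested neutrophil markers rose, at summed levels of 4228 to 7327 FPKM in DSS colon and 8.72 to 34.1 FPKM in control colon, led by S100a8 and S100a9. Of 6 tested adipocyte markers Fabp4 and Cidec rose and Adipoq, Cfd and Retn fell. Pdpn, Cd34, Tpm2, Krt8, Krt19, Fabp4 and Cidec were not called when any 1 control was left out, and all of these but Tpm2 were not called without DSS 3, while Krt8, Krt19, Fabp4 and Cidec were not called without DSS 2. With median-of-ratios scaling Fabp4 and Cidec were not called.

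By Euclidean distance over the 6 samples, in log2(FPKM + 1) less the control mean, the 5 tested genes nearest to Lox were Cxcl10 (0.517), Scgb2b20 (0.601), Il6 (1.07), Cxcl9 (1.08) and LOC100038947 (1.13). Cxcl10, a chemokine gene, had 29.8, 29.1 and 63.6 FPKM in DSS 1, 2 and 3 and 3.52, 5.52 and 3.36 FPKM in control colon, so that DSS 3 was its highest sample, as it was for Lox. Il6, a cytokine gene, had 11.4, 8.95 and 9.37 FPKM in DSS colon and 0.245, 0.213 and 0 FPKM in control colon.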

How the data were processed

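RNA from colon tissue was measured in 3 DSS and 3 control samples, with groups and replicate numbers from the sample titles. The deposited values are FPKM per gene, made by the authors, per the file headers. TopHat2 2.1.1 and mm10 are named in the submitters' processing notes, and for the FPKM step itself the program and annotation were not given in the sources used here. Per the labels' protocols a non-directional second-strand module was used, so strand was taken as not recorded. Each file held 24421 rows. Whole-read steps were looked for in the ratios of low genes between samples and not found (the fullest bin, 0.02 log2 units wide, took 1.86% of genes), which leaves depth unknown. Gapdh, which every cell uses, was listed at 0 in DSS 1, so that an exact 0 may not be an absence, and no enzyme gene was at 0 in any sample.

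Values were taken as log2(FPKM + 1) without scaling, and group was fitted in limma 3.58.1 under R 4.3.3, with trend and robust options, two-sided tests and Benjamini-Hochberg adjustment over 12348 genes. The fit was tested on simulated data. The members, gene lists and tests were chosen with earlier results of these data known. Named were all members, the called genes of each list, the 4 most abundant collagens and other collagen-making genes, the 2 most abundant markers of each cell type, and the 5 genes nearest to each called member. Loxl4, Eln and genes named only for a call under an alternative were chosen after their values were seen. Ly6g, a neutrophil marker of the list, had no row. Gene positions follow GENCODE vM21 (GRCm38, known as mm10), whose transcripts were searched for near-identical copies with BLAST+ 2.17.0 (95% identity over at least 200 bases). Python 3.11.15 and matplotlib 3.10.9 made the figures. Alternatives covered scaling, pseudocounts, filters, moderation, the replicate block and each sample left out.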

Additional observations from a re-analysis of the deposited data

How the results depend on the processing

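Lox was called higher under all 14 alternatives, with log2 fold changes of 2.75 to 3.64 and limma adjusted p of 0.00188 to 0.0188. The count of members called higher was 1 in 13 of these and 2 without DSS 2 (1 to 2 with 1 sample left out), and none was called lower in any. Genes called numbered 517 higher and 503 lower with median-of-ratios scaling, and 209 to 1165 higher and 79 to 606 lower with 1 sample left out. Log2 fold changes of members that were not called changed sign in some settings: Loxl1 with median-of-ratios (-0.085) and upper-quartile scaling (-0.062), and with 1 sample left out Loxl1 (-0.19 to 0.50), Loxl2 (-0.024 to 0.61), Plod1 (-0.15 to 0.099), Plod3 (-0.47 to 0.17) and P4ha2 (-0.046 to 0.34). The cause was not tested. Relative to fibrillar collagen the log2 difference of Lox was 2.65 to 3.04 with 1 sample left out, and 3.64 with fibroblast markers as the denominator. The group differences in share of Lox (40.5 to 47.5 percentage points), Plod2 (7.55 to 13.4) and P4ha1 (-13.9 to -10.3) kept their sign with each sample left out. Deviations of same-numbered samples from their group means had correlations of 0.082, 0.13 and 0.0031 for numbers 1, 2 and 3. For DSS 1 and DSS 2 the control of the same number gave the highest value. Whether same-numbered samples share more than a number cannot be decided from these values, since deviations from a mean of 3 samples depend on each other. With the replicate block 640 genes were higher and 255 lower, and Lox was called (limma adjusted p = 0.0132). Not every sample correlated best with its own number. Depth is unknown, and 3 samples a group limit the precision.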
